A study of Mus musculus with 12 samples.

Results

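Wfs1, Gpr161, Lefty1, Mpped1, Pou3f1, Fibcd1 and Man1a are used as markers of CA1 pyramidal neurons, the output neurons of the hippocampal field that passes information from CA3 to the subiculum and cortex. These 7 genes were taken by symbol from a table of 24015 rows of nuclear RNA counts, and all 7 were present and passed the filter on low counts that left 15668 rows for testing. Neuronal nuclei had been sorted from pooled hippocampi of 10 to 12 mice per condition, in 12 libraries of 4 groups titled Basal, Early, Late and Reactivated, with 3 biological replicates each. All groups carried the same alleles, ArcCreERT2 with the R26R-STOP-floxed- yellow fluorescent protein (eYFP) reporter, genotype "+/+", so that Cre was made where the activity-regulated gene Arc was active and 4-hydroxytamoxifen let it mark those cells for good. The drug was given 1 h before contextual fear conditioning, a foot shock paired with a place, and mice were kept in the dark around it. Some brains were collected 1.5 to 2 h later and others on day 5, and part of the day 5 mice met the tone and context again first. The treatment label is identical for all 12 libraries and records no recall and collection on day 0, so the groups rest on the titles. That Late and Reactivated nuclei come from day 5, and Reactivated nuclei from mice that met the cue, is read from the titles and the protocol. Nuclei were fixed, stained for NeuN (a neuronal nuclear protein), Arc and GFP, and sorted, but the gate behind each title, and the sex and age of the mice, are not given in the labels at hand.

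Markers of this kind are known mainly from in situ hybridization and single-cell maps of the mouse hippocampus, where CA1, CA3 and the dentate gyrus each express a characteristic set of genes. The 7 genes share a place of expression and not a pathway. Gpr161 encodes an orphan G protein-coupled receptor of the primary cilium that holds Hedgehog signalling down, Lefty1 a secreted inhibitor of Nodal, and Fibcd1 a membrane receptor with a fibrinogen-like domain that binds acetylated sugars and chitin. Pou3f1 encodes a POU-domain transcription factor. Wfs1 encodes wolframin, a membrane protein of the endoplasmic reticulum (ER), Man1a a Golgi mannosidase that trims N-linked glycans, and Mpped1 a metallophosphoesterase. In the later mouse annotation at hand the genes lie on chromosomes 5 (Wfs1), 1 (Gpr161 and Lefty1), 15 (Mpped1), 4 (Pou3f1), 2 (Fibcd1) and 10 (Man1a). Positions are not given for the counts, because these were made on an older build.

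Library totals ran from 4838166 to 11120255 counts, and 16965 to 18643 rows were above 0 in a library. Levels are normalized counts, which here are counts brought to a common effective library size (TMM), and ± marks the SD over n = 3 libraries. Fold changes, given with ± SE on the log2 scale, and adjusted p come from the quasi-likelihood test of edgeR with Benjamini-Hochberg adjustment over all 15668 rows, and "rose" or "fell" means an adjusted p under 0.05. The ribosomal precursor Rn45s took 4.72% to 12.9% of the counts in Basal and Early libraries and 18.8% to 36.5% in Late and Reactivated libraries. That share moved with the 2 pairs of groups, and its part in the results below was not tested apart from the fit described with the limits. Lars2 took 3.54% to 4.61% of the counts in Reactivated libraries and 0.182% to 1.19% in the others. The Reactivated libraries were also the least alike, with Pearson r of log2 normalized counts from 0.954 to 0.974, against 0.976 to 0.990 within the other groups. The part of either in the results was not tested. Sorted pools of nuclei cannot tell more CA1 nuclei apart from more RNA of these genes per nucleus, which holds for every comparison below. The replicates are pools of mice, so the spread between them is that between pools.

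All 7 genes differed among the 4 groups (adjusted p from 8.67e-07 for Gpr161 to 0.00165 for Lefty1, n = 3 libraries per group), where 58.6% of all rows tested did. In every one of the 7 the 3 Basal libraries were the lowest 3 of the 12. Their sum was 846 ± 213 normalized counts for Basal and 2066 ± 152 for Early, and 2986 ± 201 and 3200 ± 336 for the Late and Reactivated groups. As a part of all counts without Rn45s this was 0.0108% to 0.0167% for Basal, 0.0282% to 0.0359% for Early, 0.0368% to 0.0383% for Late and 0.0384% to 0.0479% for Reactivated libraries. Beyond the gap to Basal, the genes ordered the other 3 groups differently.

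**Figure D1:**
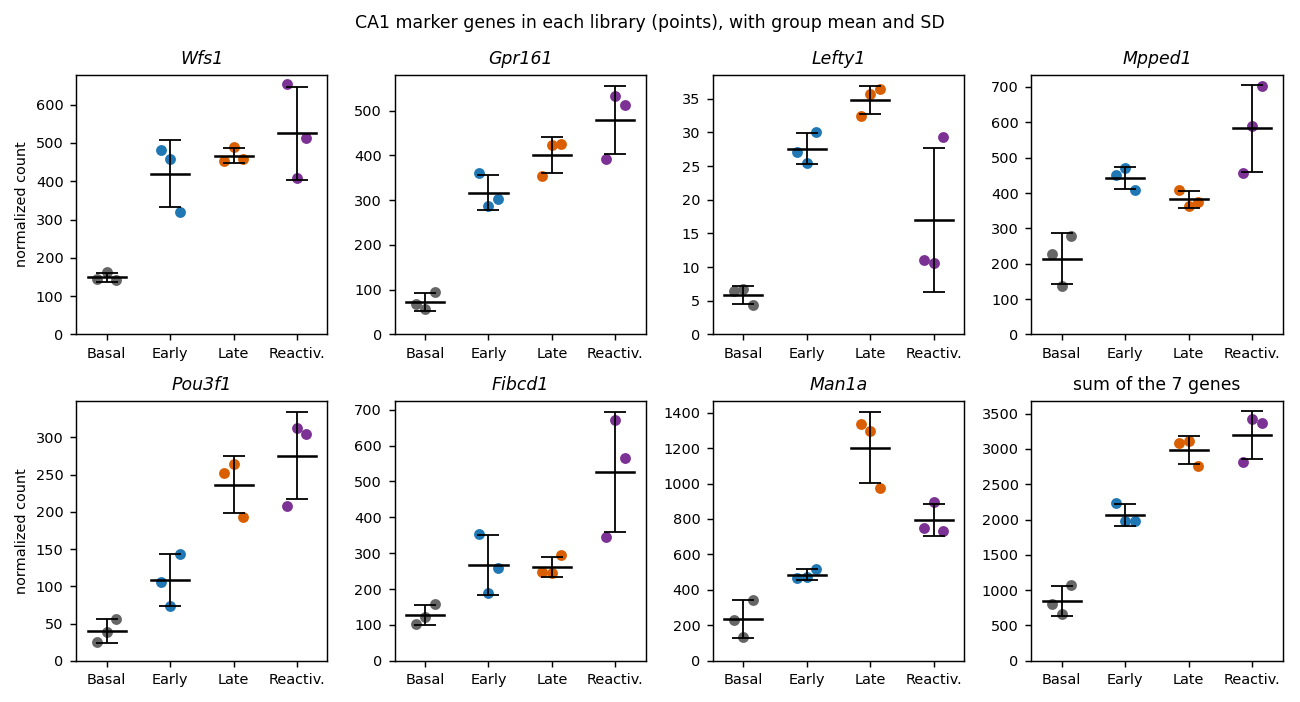
Each panel plots the normalized count of 1 CA1 marker gene, or the sum of the 7, against the group, with 1 point per library and the group mean and SD in black. All 3 Basal points lie below the other 9 points in each panel. Man1a is highest in Late, at 1202, Fibcd1 in Reactivated, at 528, and Lefty1 is spread most widely in Reactivated, from 10.6 to 29.3.

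Gpr161, the ciliary receptor, stood at 68.7, 56.1 and 95.4 normalized counts in Basal libraries 1 to 3. Its Early libraries had 360, 286 and 302, its Late libraries 354, 423 and 425 and its Reactivated libraries 392, 533 and 512 normalized counts. The Basal libraries were far below the rest, and the means of the other groups were ordered Early, Late, Reactivated with overlap between neighbours. Against Basal the gene rose 4.24-fold in Early (log2 fold change 2.08 ± 0.20, adjusted p = 3.79e-05), 5.37-fold in Late (2.43 ± 0.20, adjusted p = 6.01e-07) and 6.44-fold in Reactivated (2.69 ± 0.20, adjusted p = 3.18e-06). Among the neighbours neither Late against Early (0.34 ± 0.18, adjusted p = 0.146) nor Reactivated against Late (0.26 ± 0.18, adjusted p = 0.334) passed, although the first did with limma (0.31, adjusted p = 0.0297) and the second under scaling to equal totals (0.62, adjusted p = 0.0389). Between the ends of that order, Reactivated was 1.52-fold above Early with no overlap (0.60 ± 0.18, adjusted p = 0.0262).

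Lefty1, the Nodal inhibitor, had the fewest reads of the 7, with 5, 6 and 6 raw counts in the Basal libraries, 26, 37 and 36 for Early, 27, 27 and 39 for Late and 8, 12 and 33 for Reactivated. The Basal mean was 5.84 ± 1.33 normalized counts, the Early mean 27.6 ± 2.30, the Late mean 34.8 ± 2.12 and the Reactivated mean 17.0 ± 10.7. Early and Late were tight groups, whereas in Reactivated only library 3 reached the level of Early. Lefty1 rose against Basal 4.77-fold in Early (2.25 ± 0.47, adjusted p = 0.00859), 6.03-fold in Late (2.59 ± 0.47, adjusted p = 0.000397) and 2.99-fold in Reactivated (1.58 ± 0.48, adjusted p = 0.0183). The rise in Early did not pass without Basal 3 and Early 3 together, at 1.98. All 3 Reactivated libraries lay below all 3 Late libraries, but the difference of -1.01 ± 0.41 did not pass (adjusted p = 0.0931). Without Reactivated 3 that difference passed at -1.68, and the rise against Basal did not, at 0.91; without Basal 3 that rise did not pass either, at 1.37, nor under scaling to equal totals (1.12) or with the values as deposited (1.62). Of the 50-base stretches of the annotated Lefty1 transcripts, 17.9% also occur in its neighbour in sequence Lefty2 and in no other gene, so part of the reads could have been assigned to either gene. Lefty2 itself had a Basal mean of 30.6 ± 17.5 normalized counts, an Early mean of 28.6 ± 11.1, a Late mean of 13.1 ± 5.95 and a Reactivated mean of 29.5 ± 28.0, and passed in none of the 6 comparisons.

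Fibcd1, the sugar-binding receptor, stood at 102, 122 and 158 normalized counts in Basal. Its Early libraries had 353, 188 and 260, its Late libraries 247, 244 and 295 and its Reactivated libraries 344, 672 and 567 normalized counts. Early and Late were alike in mean, at 267 and 262, and Reactivated was the highest group, with library 1 inside the range of Early. Against Basal it rose 2.06-fold in Early (1.05 ± 0.26, adjusted p = 0.0278), 2.04-fold in Late (1.03 ± 0.26, adjusted p = 0.00514) and 4.11-fold in Reactivated (2.04 ± 0.27, adjusted p = 0.000102). The Early and Late calls were lost under scaling to equal totals (0.98 and 0.22) and with the values as deposited (1.18 and 0.79). Reactivated was 2.02-fold above Late without overlap (1.01 ± 0.25, adjusted p = 0.0102) and 1.99-fold above Early with overlap (0.99 ± 0.25, adjusted p = 0.0121).

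Pou3f1, the transcription factor, stood at 24.6, 39.3 and 56.0 normalized counts in Basal. Its Early libraries had 107, 73.8 and 144, its Late libraries 252, 264 and 193 and its Reactivated libraries 208, 313 and 305 normalized counts. The groups formed 3 steps, Basal, then Early, then Late together with Reactivated, and no library crossed from one step to the next. It rose 2.61-fold from Basal to Early (1.38 ± 0.30, adjusted p = 0.0122) and a further 2.19-fold from Early to Late (1.13 ± 0.27, adjusted p = 0.00432). Reactivated stood 6.68-fold above Basal (2.74 ± 0.30, adjusted p = 3.64e-05), the largest fold of any of the 7 genes in any of the 6 comparisons. Reactivated and Late did not differ beyond their spread (0.23 ± 0.26, adjusted p = 0.586). An annotated antisense gene, Gm2164, overlaps Pou3f1, and the strand setting of the counting is not given, so reads of the antisense strand may be included.

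Wfs1, the ER membrane protein, stood at 144, 163 and 141 normalized counts in Basal. Its Early libraries had 480, 459 and 319, its Late libraries 453, 490 and 458 and its Reactivated libraries 653, 409 and 512 normalized counts. Its pattern was a single step, with Early, Late and Reactivated overlapping. It rose 2.81-fold in Early (1.49 ± 0.19, adjusted p = 0.000278), 3.13-fold in Late (1.64 ± 0.19, adjusted p = 1.05e-05) and 3.51-fold in Reactivated (1.81 ± 0.19, adjusted p = 2.98e-05) against Basal. None of the other 3 comparisons passed, and their log2 fold changes were 0.15 to 0.32 with adjusted p of 0.204 to 0.560.

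Man1a, the Golgi mannosidase, stood at 231, 131 and 343 normalized counts in Basal. Its Early libraries had 464, 471 and 519, its Late libraries 1337, 1299 and 972 and its Reactivated libraries 749, 898 and 733 normalized counts. No 2 groups overlapped, and the order was Basal, Early, Reactivated, Late. It rose 2.05-fold from Basal to Early (1.03 ± 0.25, adjusted p = 0.0226; not past with the values as deposited or with the 2 groups alone) and 2.48-fold from Early to Late (1.31 ± 0.25, adjusted p = 0.000763), so that Late stood 5.07-fold above Basal. Reactivated was 1.64-fold above Early (0.71 ± 0.24, adjusted p = 0.0443). It lay below Late by -0.60 ± 0.24 on the log2 scale, which did not pass (adjusted p = 0.0916), although it did with limma (-0.68), with the 2 groups fitted alone (-0.55), without Basal 2 or Basal 3 (-0.60 each) and without Basal 3 and Early 3 together (-0.61). A pair of genes annotated on the opposite strand overlap Man1a. One of them, Gm16998, had 1 to 27 counts per library against 117 to 1113 for Man1a.

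Mpped1, the metallophosphoesterase, stood at 227, 138 and 279 normalized counts in Basal. Its Early libraries had 450, 471 and 408, its Late libraries 408, 363 and 374 and its Reactivated libraries 457, 590 and 703 normalized counts. It had the smallest gap to Basal of the 7 in Late, with 215 ± 71.3 in Basal and 382 ± 23.4 in Late. It rose 2.05-fold in Early (1.04 ± 0.22, adjusted p = 0.00898), 1.77-fold in Late (0.82 ± 0.22, adjusted p = 0.00595) and 2.71-fold in Reactivated (1.44 ± 0.22, adjusted p = 0.000271). Under scaling to equal totals the Late value lay just under 0, and the median of all rows lay far lower, so the direction against Basal in Late rests on the scaling; with the values as deposited it was 0.56 and did not pass. Reactivated was 1.53-fold above Late without overlap (0.61 ± 0.21), at an adjusted p of 0.0498, just under the threshold.

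**Figure D2:**
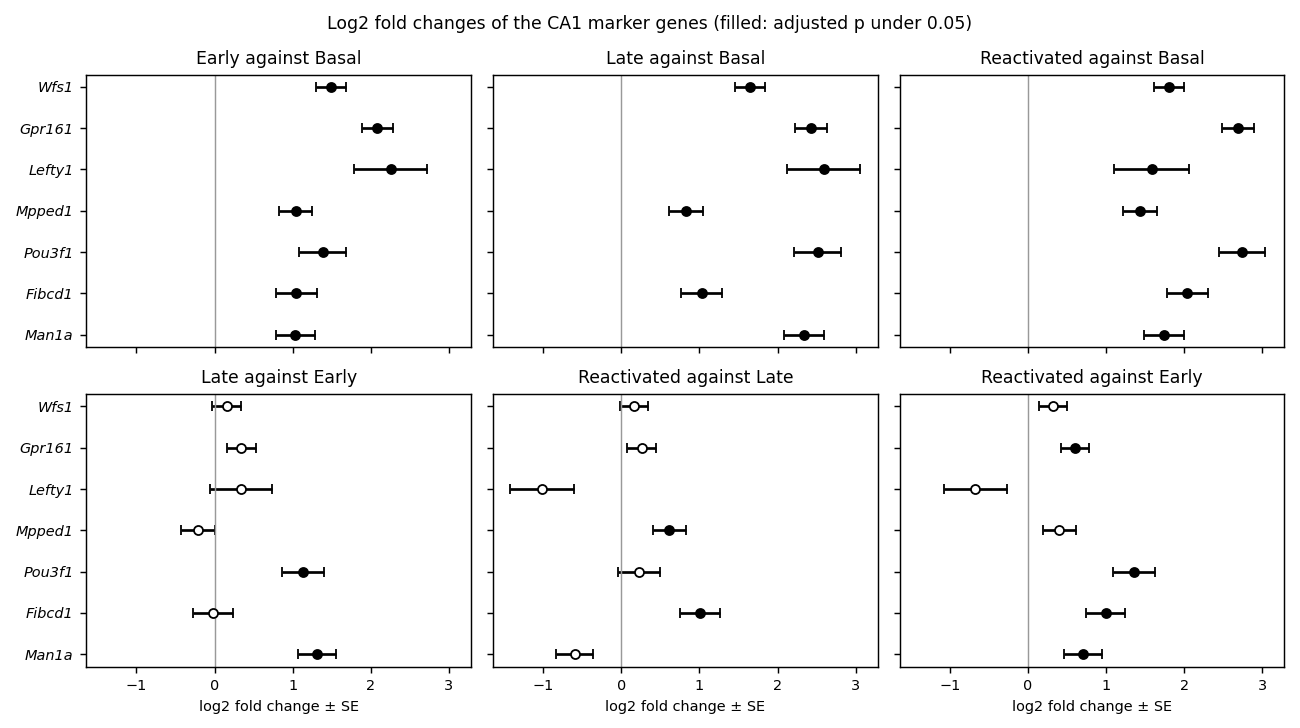
Each panel shows the log2 fold change of the 7 CA1 marker genes with its SE in 1 of the 6 comparisons, filled where the adjusted p was under 0.05. In the upper row, against Basal, all 21 points are filled and right of 0. In the lower row 8 points are filled, all right of 0, while Lefty1 and Man1a in Reactivated against Late lie left of 0 and unfilled.

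Read by comparison, Early against Basal sets the nuclei titled Early beside those titled Basal, and its purpose is not stated in the labels. All 7 genes rose, where 3.36% of all rows rose and 2.66% fell, and in all 7 every Early library lay above every Basal library, as in 11.9% of all rows. Their median log2 fold change was 1.38, beside 0.01 over all rows tested. Only 4 genes passed without Basal 1, without Basal 2 or without Early 3, namely Wfs1, Gpr161, Lefty1 and Mpped1 in each case, and the log2 fold changes of Pou3f1, Fibcd1 and Man1a were then 0.75 to 1.35. Lefty1 in turn did not pass without Basal 3 and Early 3 together (1.98, adjusted p = 0.0739). The values of single genes kept their sign in every alternative run for this comparison.

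Late against Basal sets the nuclei titled Late beside the same 3 Basal libraries. All 7 genes rose, where 25.4% of all rows rose and 23.7% fell, and all 7 were free of overlap, as were 31.3% of all rows in that direction. The median was 2.34, beside -0.03 over all rows. In this comparison Man1a, Pou3f1, Gpr161 and Lefty1 rose more than 5-fold, and Wfs1, Fibcd1 and Mpped1 1.77-fold to 3.13-fold. All 7 passed when any 1 of the 12 libraries was left out, but Mpped1 and Fibcd1 did not pass under scaling to equal totals or with the values as deposited. In a fit with the share of Rn45s as a covariate only Gpr161 of the 7 passed, and the log2 fold changes of the 7 were then all above 0.

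Reactivated against Basal does the same for the nuclei titled Reactivated. All 7 genes rose, where 20.6% of all rows rose and 18.8% fell, and all 7 were free of overlap, as were 22.8% of all rows in that direction. The median was 1.81, beside 0.02 over all rows. Pou3f1, Gpr161 and Fibcd1 rose most, by 4.11-fold to 6.68-fold, and Mpped1 and Lefty1 least. In the fit with the share of Rn45s as a covariate Lefty1 and Man1a did not pass (adjusted p = 0.193 and 0.0917). Early, Late and Reactivated were all compared with the same 3 Basal libraries, so the 3 counts of 7 are not separate observations.

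Between the Early, Late and Reactivated groups fewer of the 7 genes moved. In Late against Early, Pou3f1 and Man1a rose and none fell, where 22% of all rows rose and 20.3% fell. In Lefty1, Pou3f1 and Man1a the Late libraries lay above the Early libraries, as in 29.5% of all rows. The 2 of 7 calls are thus near the share among all rows, and the median of the 7 was 0.34. Under scaling to equal totals Man1a alone rose and Wfs1, Mpped1 and Fibcd1 fell, and the median of all rows moved down by a like amount.

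In Reactivated against Late, Fibcd1 and Mpped1 rose and none fell, where 10.3% of all rows rose and 12.3% fell. Fibcd1 and Mpped1 were free of overlap upwards, as were 18.4% of all rows, and Lefty1 and Man1a downwards, as were 21.2%. By the titles and the protocol it sets nuclei of mice that met the cue again beside those of mice that did not. The gate behind each title is not given and may differ too. The values of the 7 ran from -1.01 for Lefty1, which did not pass, to 1.01 for Fibcd1. The call of Mpped1 ended when any 1 of 9 libraries was left out (0.46 to 0.66), while that of Fibcd1 held without each of the 12.

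In Reactivated against Early, Gpr161, Pou3f1, Fibcd1 and Man1a rose and none fell, where 13.5% of all rows rose and 12.7% fell. In Gpr161, Pou3f1 and Man1a the libraries did not overlap, as in 19.2% of all rows in that direction. The median was 0.60, beside 0.03 over all rows. Without Early 2 only Pou3f1 passed. The call of Man1a ended without any 1 of 9 libraries (0.61 to 0.76), and that of Gpr161 without Early 2, Early 3, Reactivated 2 or Reactivated 3 (0.52 to 0.56). Lefty1, at -0.67 and not past the threshold, fell without Reactivated 3, at -1.35 (adjusted p = 0.0249). With upper quartile scaling Pou3f1 and Fibcd1 passed.

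The proportions between the 7 genes do not depend on how libraries are scaled. Man1a made up 43.3%, 41.6% and 35.3% of the summed count of the 7 genes in the Late libraries. In the other 9 libraries it made up at most 31.8%, so every Late library was above all others. Mpped1 showed the opposite, with 11.6% to 13.6% in Late and 16.2% to 28.2% in the other 9. Gpr161 made up 8.55%, 8.55% and 8.86% in Basal and 11.5% to 16.1% elsewhere, so that its share rose from Basal to the other groups at the cost of the other genes together. Fibcd1 made up 7.84% to 10.7% in Late and 12.2% to 19.6% in Reactivated, without overlap. The share of Lefty1 was 0.308% to 0.872% in Reactivated and 1.05% to 1.52% in Early and Late. The 7 markers therefore did not change by 1 common factor in any group; these shares were looked at after the levels were known and carry no test.

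**Figure D3:**
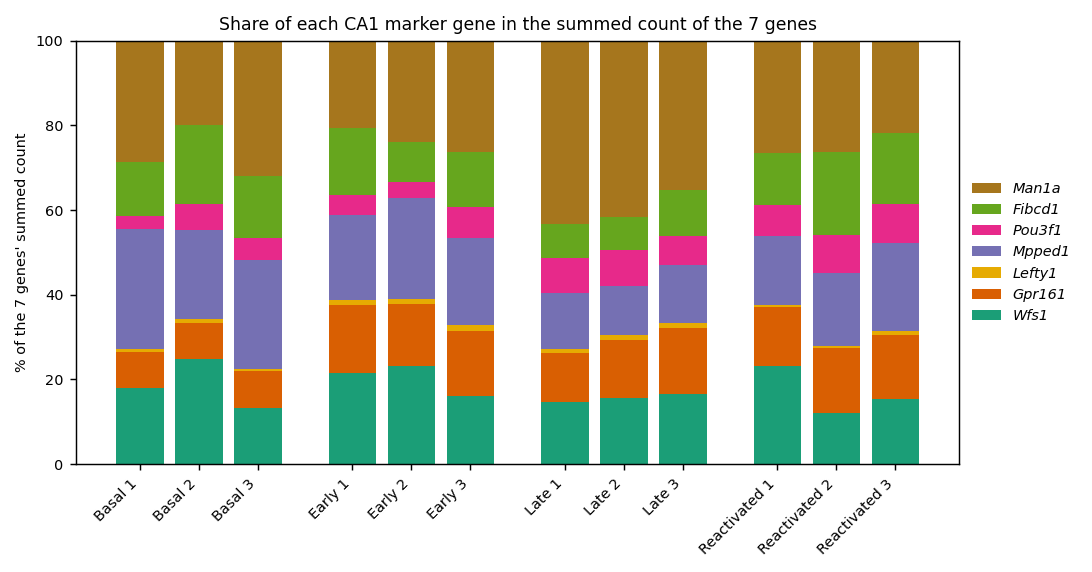
Stacked bars give the percent of the summed count of the 7 CA1 marker genes that each gene takes in each of the 12 libraries. The Man1a part is 35.3% to 43.3% in the Late libraries and at most 31.8% elsewhere, and the Mpped1 part is smallest in Late.

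Promoter sequences, the 250 bases before and 50 after an annotated start, are shown for Fibcd1 and Mpped1, the genes that passed in Reactivated against Late, and for Man1a, whose lower mean in Reactivated did not pass. They come from RefSeq on build GRCm38.p6, matched by symbol; 5 of the 7 genes had an entry, Gpr161 and Mpped1 with 2 starts each, and Lefty1 and Pou3f1 are named only. The Mpped1 stretch is chr15:83779773-83780072 on the plus strand, that of Fibcd1 chr2:31845956-31846255 on the minus strand and that of Man1a chr10:54075688-54075987 on the minus strand. Capitals mark matches on either strand to GCGNGGGCG, where N is any base. This pattern is looser than the site bound by Egr1 and its relatives, so a match need not be such a site.
Mpped1: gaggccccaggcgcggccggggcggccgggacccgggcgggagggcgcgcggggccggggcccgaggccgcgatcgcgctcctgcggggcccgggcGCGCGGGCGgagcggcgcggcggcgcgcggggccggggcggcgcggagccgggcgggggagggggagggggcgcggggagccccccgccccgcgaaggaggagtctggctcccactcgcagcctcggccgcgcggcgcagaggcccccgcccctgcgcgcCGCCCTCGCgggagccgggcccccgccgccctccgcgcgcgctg
Fibcd1: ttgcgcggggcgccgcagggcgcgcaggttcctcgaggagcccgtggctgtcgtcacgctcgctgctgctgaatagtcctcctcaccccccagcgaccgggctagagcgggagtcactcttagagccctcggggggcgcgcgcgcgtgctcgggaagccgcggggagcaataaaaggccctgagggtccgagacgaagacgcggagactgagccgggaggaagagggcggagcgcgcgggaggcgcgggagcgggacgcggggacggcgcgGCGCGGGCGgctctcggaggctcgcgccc
Man1a: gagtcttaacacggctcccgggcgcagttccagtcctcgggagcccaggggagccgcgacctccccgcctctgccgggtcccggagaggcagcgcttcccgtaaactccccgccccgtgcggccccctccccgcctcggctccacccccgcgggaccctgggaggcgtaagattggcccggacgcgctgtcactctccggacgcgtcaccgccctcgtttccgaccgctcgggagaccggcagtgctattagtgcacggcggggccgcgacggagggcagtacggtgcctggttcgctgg

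All 3 stretches are rich in G and C, with 89.3% in Mpped1, 74.3% in Fibcd1 and 72.7% in Man1a beside a median of 52.7% over all promoters of that table. They hold 59, 46 and 38 CG pairs. Mpped1 has GCGCGGGCG beginning 154 bases before the start and CGCCCTCGC, a match to the pattern on the other strand, 6 bases after it. Fibcd1 has GCGCGGGCG 21 bases after its start. The base at N was C in GCGCGGGCG and, read on the other strand, A in CGCCCTCGC. Among the 5 genes with an entry these were the only 2 with the pattern, which 5.55% of all 32851 promoters and 10% of those of tested genes hold. The pattern is nearly all G and C, and these shares are not matched for G and C content. They are also counted per promoter, whereas a gene with 2 starts was counted once. The 2 of 5 can thus not be read as an excess. The octamer ATGCAAAT of POU factors (1.24% of the promoters of tested genes), the cyclic AMP element TGACGTCA (2.79%), the AP-1 site TGANTCA (5.41%), the FoxH1 site TGTNNATT (7.65%) and TATAAA (7.78%) were searched in the same way on both strands, and none was in these windows of the 5 genes. A match describes letters in a window and was not tied to binding.

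Other genes known from CA1 or from pyramidal neurons in general were counted in a list of 16, all tested, which mixes genes of CA1 with genes of all excitatory neurons. Against Basal 6 rose and none fell in Early, 9 rose and 3 fell in Late and 10 rose and 1 fell in Reactivated. The medians were 0.47, 0.98 and 0.81. Rises among all rows tested made up 3.36%, 25.4% and 20.6% in that order, and falls 2.66%, 23.7% and 18.8%. Nov, a secreted matrix protein, had 114 ± 28.8 normalized counts in Basal and 308 ± 50.4 in Early, and 346 ± 10.5 and 792 ± 64.4 in the Late and Reactivated groups, and rose in all 3 comparisons with Basal. From Late to Reactivated it rose 2.29-fold without overlap (adjusted p = 0.000184), the same direction as Fibcd1. Pex5l, a subunit of pacemaker channels, went from 462 ± 115 to 1202 ± 111, 1739 ± 57.8 and 1691 ± 189. Neurod6, a transcription factor of pyramidal neurons, rose 4.55-fold, 4.31-fold and 4.68-fold against Basal in Early, Late and Reactivated.

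Spink8, a protease inhibitor known as a marker of CA1, did not follow the 7 genes and is named after its values were seen. Basal and Early libraries had 22.1 ± 8.12 and 31.3 ± 14.5 normalized counts, and Late and Reactivated libraries 6.07 ± 2.95 and 7.22 ± 6.41, with 1 to 46 counts per library. It fell 3.47-fold from Basal to Late (adjusted p = 0.0284), 4.89-fold from Early to Late (-2.29 ± 0.62, adjusted p = 0.00840) and 4.00-fold from Early to Reactivated (adjusted p = 0.0239). Markers called after CA1 were thus not all higher in Late and Reactivated, and "CA1 markers" here stands for the 7 genes named.

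The close relatives of the 7 genes moved in other ways. None of 9 relatives passed in Early against Basal, with a median of -0.07. That count is near the share among all rows, of which 3.36% rose and 2.66% fell there. Of the other mannosidases of the same class, Man1a2 and Man1b1 passed in no comparison, at 783 to 945 and 279 to 303 normalized counts as group means. Man1c1 followed Man1a in being highest in Late, at 1204 ± 182 normalized counts, and had 470 ± 15.0, 360 ± 47.0 and 686 ± 183 in the Basal, Early and Reactivated groups. It rose 2.56-fold in Late against Basal (1.36 ± 0.19, adjusted p = 5.15e-05) and fell 1.76-fold from Late to Reactivated (-0.81 ± 0.19, adjusted p = 0.00603). Pou3f2, a relative of Pou3f1 of the same POU class, rose 4.05-fold in Late against Basal (2.02 ± 0.35, adjusted p = 0.000300), and its Reactivated libraries were spread, at 1077 ± 757. Pou3f3 was at 267 ± 47.5 in Basal and 380 ± 40.9 in Reactivated and rose 1.42-fold there (adjusted p = 0.0471), Pou3f4 had group means of 4.07 to 9.04 and passed in no comparison, and Pou2f1 fell 1.91-fold in Late and 1.96-fold in Reactivated against Basal. Mpped2, the relative of Mpped1, fell in Late, from 189 ± 50.1 to 117 ± 24.3 (-0.69 ± 0.21, adjusted p = 0.0144).

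Genes of the pathways in which the markers act gave mixed counts. For scale, the Late comparison with Basal called 25.4% of all rows higher and 23.7% lower. The Reactivated comparison called 20.6% higher and 18.8% lower, and that of Early 3.36% and 2.66%. No list was tested against these shares, and in lists this short the counts are not read as changes of a pathway. Of 12 genes of Nodal and activin signalling 8 were tested, while Nodal, its co-receptor Tdgf1, Foxh1 and Fst were too low. Smad3, a transducer of that pathway, fell in all 3 comparisons with Basal, by 1.82-fold in Early and 1.87-fold in Late, and the receptor gene Acvr2a fell 1.58-fold in Late and 1.76-fold in Reactivated. Of 11 tested genes of the primary cilium and Hedgehog pathway 1 rose and 1 fell in Early, and 4 rose and 1 fell in each of Late and Reactivated. Sstr3, a somatostatin receptor of neuronal cilia, rose against Basal in each group, with means of 71.3 ± 13.0, 145 ± 38.0, 331 ± 44.1 and 276 ± 70.0 normalized counts in the order Basal, Early, Late, Reactivated. The gene that fell was Ptch1, the Hedgehog receptor and target, by 1.77-fold, 1.83-fold and 1.59-fold; it is named after its values were seen. Of 11 ER stress genes none passed in Early, 1 rose and 1 fell in Late, and 3 rose and 1 fell in Reactivated; Atf6, a sensor of that response, fell 2.38-fold in Late and 2.21-fold in Reactivated, and Xbp1, another of its factors, rose 1.62-fold in Late. Of 9 genes of N-glycan trimming and folding 1 rose in Early, 4 rose and 1 fell in Late and 3 rose in Reactivated, among them Canx, the chaperone calnexin, 2.12-fold in Reactivated.

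Markers of other cell types moved between the groups alongside the CA1 genes. Beside their counts against Basal stand the shares of all rows. In Early 3.36% rose and 2.66% fell, in Late 25.4% and 23.7%, and in Reactivated 20.6% and 18.8%. Of 10 granule cell markers 9 fell against Basal in each of Early, Late and Reactivated, and their sum was 8384 to 12224 normalized counts in Basal libraries and 1363 to 3081 in the other 9. Of 12 CA3 and CA2 markers 7 rose against Basal in each of the 3 groups, with 1 falling in Late, and their sum was 1390 to 1674 for Basal, 3029 to 4484 for Early, 4261 to 5181 for Late and 2933 to 3281 for Reactivated libraries. The CA3 and CA2 sum thus went down from Late to Reactivated without overlap, and the CA1 sum did not. The median log2 fold change of the list there was 0.05. In it 1 gene rose and 3 fell, where 10.3% of all rows rose and 12.3% fell. The sum mostly followed Grik4 (1780 to 815), Hs3st4 (1374 to 813) and Socs2 (570 to 295). Of 7 subiculum and deep cortex markers 2 rose in Early, 6 in Late and 6 in Reactivated. Their sum reached 9925 to 19630 in Late against 2297 to 3058 in Basal. Most of the Late mean sum of 15474 came from Bcl11b, at 7649, and Rorb, at 5819. The sum thus mostly followed these genes, and whether it stands for nuclei of the subiculum or deep cortex was not tested. Of 12 interneuron markers 2 rose and 4 fell in Early, 5 fell in Late, and 2 rose and 6 fell in Reactivated. Among glia, 4 microglia genes were tested, with 2 up and 2 down in Late, where Itgam and Cx3cr1 made up nearly all of a sum of 5645 to 9715, against 652 to 781 in Basal, and Tmem119 and C1qa were too low to test. The 7 oligodendrocyte markers summed to 1892 to 2413 in Basal and 4726 to 9952 in Late, with 3 up and 4 down, the 7 astrocyte markers to 2611 to 5059 and 2046 to 2401, and the 6 blood vessel markers, of which 5 were tested, to 77.5 to 365 and 50.4 to 57.9. The 4 general neuronal markers summed to 10651 ± 893 normalized counts for Basal, 13535 ± 988 for Early, 12184 ± 196 for Late and 15782 ± 1370 for Reactivated, and against Basal 1 rose in Early, 1 in Late and 2 in Reactivated, with none falling. Snap25, a protein of synaptic vesicle fusion, had group means of 2278, 4001, 2608 and 5038 in that order and rose in Early and Reactivated. Syt1, the calcium sensor of vesicle release, had 4594, 5692, 5006 and 6667 and rose in Reactivated, and Rbfox3, the gene of NeuN, had 1779, 1751, 2267 and 1853 and rose in Late. No listed marker was at 0 in all 12 libraries. Reactivated 1 stood apart from the other 2 libraries of its group in several sums, with 3081 against 1363 and 1411 for granule cells, 7634 against 3400 and 4107 for astrocytes, 7510 against 3364 and 2847 for oligodendrocytes and 2061 against 1097 and 801 for microglia. The part of these shifts in the levels of the 7 genes was not tested.

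**Figure D4:**
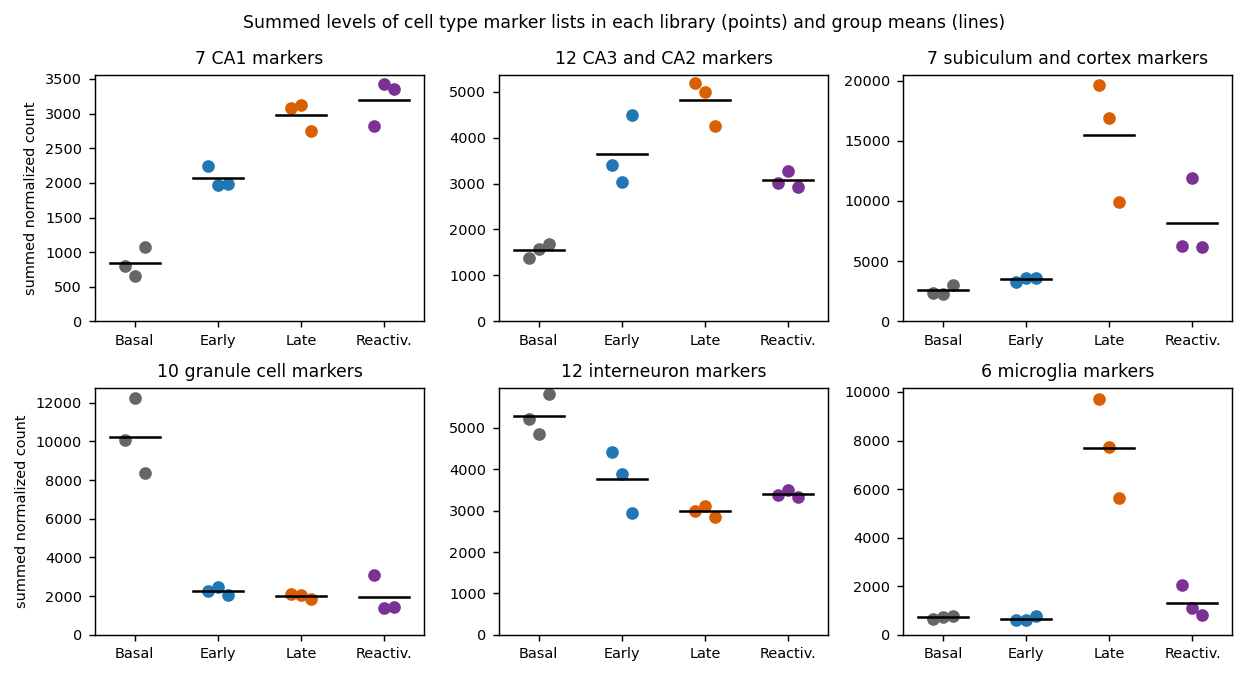
Each panel plots the summed normalized count of 1 list of cell type markers in every library, with group means as lines. The CA1 sum lies at 657 to 1077 in Basal and 1975 to 3426 elsewhere, and the granule cell sum is lower in all 9 other libraries than in Basal. The sums of the subiculum and cortex list and of the microglia list have their highest group means in Late, each carried mostly by a few genes.

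Among 10305 other genes with a mean of at least 50 normalized counts, those most like the mean standardized profile of the 7 over the 12 libraries were Pex5l (Pearson r = 0.992), Arc (0.989), Arhgdig (0.981), Chst8 (0.980) and Nr4a1 (0.979). Pearson r is used here to describe likeness only, since the 12 libraries form 4 groups and Basal stands apart. Arc, the gene whose protein was stained for the sort and whose promoter drove Cre, had group means of 145, 435, 593 and 660 normalized counts in Basal, Early, Late and Reactivated. Nr4a1, an immediate early transcription factor, had 140, 364, 377 and 447. Chst8, a sulfotransferase, had 37.3, 154, 214 and 265, and Arhgdig 26.3, 73.7, 105 and 112. Of the single genes, the closest profile was that of Cadps2 for Wfs1 (0.953), Pex5l for Gpr161 (0.985), Dpp3 for Lefty1 (0.950), L1cam for Mpped1 (0.965), Arpc5 for Pou3f1 (0.990), Ywhah for Fibcd1 (0.961) and Shd for Man1a (0.980).

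**Figure D5:**
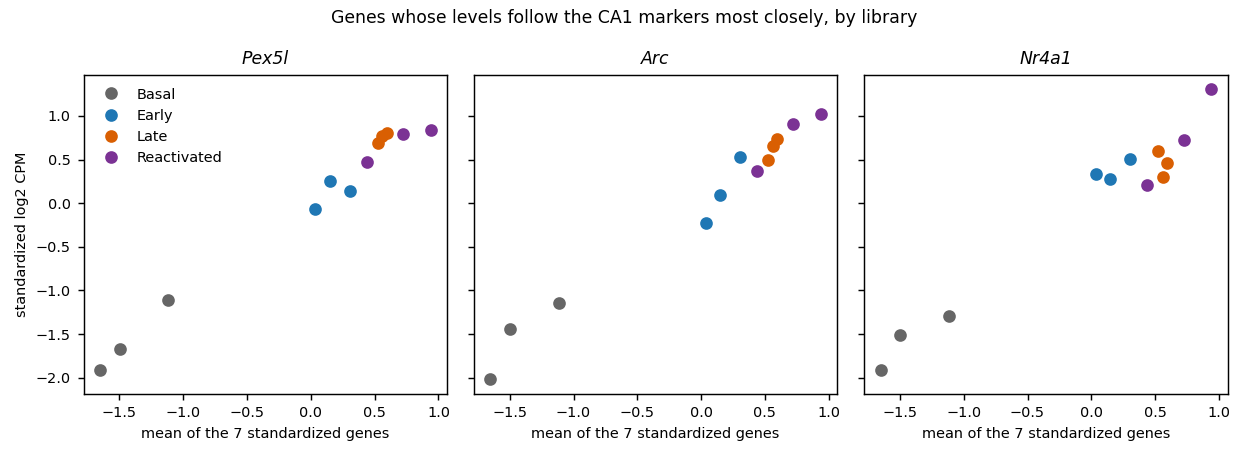
Each panel plots the standardized log2 CPM (counts scaled by library size) of Pex5l, Arc or Nr4a1 against the mean of the 7 standardized CA1 marker genes, with 1 point per library and colours for groups. The 3 Basal libraries lie apart at the lower left, and the other 9 follow with r of 0.979 to 0.992 over all 12.

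Between the members themselves r over the 12 libraries ran from 0.435 for Lefty1 with Fibcd1 to 0.929 for Wfs1 with Gpr161. Once group means were taken out, Gpr161 and Mpped1 (0.751), Gpr161 and Fibcd1 (0.750) and Mpped1 and Man1a (0.753) still went together between libraries of a group, whereas Wfs1 had values below 0 with each of the other 6, from -0.52 with Pou3f1 to -0.02 with Lefty1. Lefty1 did not go with the others either, with values from -0.38 with Man1a to 0.12 with Mpped1. Reactivated 1, the library with the highest glial and granule cell sums of its group, was also the highest of its group for Wfs1 and the lowest for Gpr161, Mpped1, Pou3f1 and Fibcd1. These correlations describe 12 libraries and carry no test.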

How the data were processed

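RNA of sorted nuclei was counted per gene symbol in 12 libraries, and groups were taken from the titles. Per the submitters' processing notes, Bowtie2 2.0, Cufflinks 2.2, DESeq2 and build mm9 were used, with no role stated. Which program counted reads, with which annotation and strand setting, is not stated in the labels. The file name calls the deposited values normalized, but they are whole numbers with differing totals and were treated as raw counts. Rows with at least 10 counts in at least 3 libraries were kept (15668 of 24015). The 4 group means were fitted to all libraries with edgeR 4.0.16 (TMM scaling, quasi-likelihood test, two-sided, Benjamini-Hochberg adjustment over all rows, threshold 0.05) in R 4.3.3, checked on simulated counts with known changes. DESeq2 1.42.0, limma 3.58.1 and other scalings, samples and covariates served as alternatives. Log2 CPM used a prior count of 2. The genes, lists and naming rule were chosen with earlier results of these data known. The rule named all 7 genes, their relatives, up to 3 genes of each list by p over the 4 groups, and the genes most like the 7 in profile. Same-numbered Basal and Early libraries deviated together from their group means (r = 0.331, 0.143 and 0.484). Those of Late and Reactivated did so more weakly (r = 0.0590, 0.0662 and 0.166). The remaining pairs of groups did not have r above 0 at every number. Whether the numbers mark a shared pool or day is not stated in the labels.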

Additional observations from a re-analysis of the deposited data

How the results depend on the processing

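Of 965 values of single genes, over 23 alternatives, 859 kept their direction and side of the threshold, 78 lost the call, 11 gained one and 17 changed sign. Members past the threshold were 4 to 7 in Early against Basal, 7 to 7 in Late against Basal, 6 to 7 in Reactivated against Basal, 2 to 2 in Late against Early, 1 to 3 in Reactivated against Late and 1 to 4 in Reactivated against Early when any 1 library was left out. With the Rn45s share as covariate, which moves with the groups, 1 member passed in Late against Basal. None passed in Late against Early, Reactivated against Late or Reactivated against Early, and Fibcd1 was then 0.65 in Late against Early. Lefty1 and Man1a lost their calls in Reactivated against Basal (1.92 and 1.17). The share of all rows that passed in this fit is not given here, so a general loss of calls cannot be told apart. Upper quartile scaling left 2 calls in Reactivated against Early and gave Wfs1 -0.0721 in Late against Early. Scaling to the same total gave Mpped1 -0.00205 in Late against Basal. It moved the median of all rows to -0.78 in Late against Early, where 4 members passed (1 higher, 3 lower) and Wfs1, Gpr161 and Lefty1 were -0.62, -0.41 and -0.40. In Reactivated against Early it left 1 call, with Wfs1 at -0.11. The values as deposited left 0 calls in Late against Early, with Wfs1, Gpr161 and Lefty1 at -0.28, -0.0684 and -0.0898, 1 in Reactivated against Late and 1 in Reactivated against Early. With limma Fibcd1 was 0.0257 in Late against Early. The replicate block, which pairs same-numbered libraries, left 1 call in Reactivated against Late, where Mpped1 no longer passed (adjusted p = 0.0549), and ended that of Man1a in Reactivated against Early (adjusted p = 0.0535); it changed no other call of the 7. Leaving out 1 library, Late against Early ran from -0.00302 to 0.26 for Wfs1 and from -0.22 to 0.23 for Fibcd1, and Reactivated against Late from -0.0183 to 0.32 for Wfs1. Without Basal 3 and Early 3 together, Late against Early was -0.00624 for Wfs1. The cause of these changes was not tested. Lefty1 had the lowest depth, with 5 to 39 counts per library.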
